A study of Mus musculus with 15 samples.

Results

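Resolving type II alveolar epithelial (AT2) cells from mice without regulatory T cells (Tregs) were compared with control AT2 cells on 10 of the 15 arrays of the series, 5 in each group. The groups were taken from the sample labels. The control cells came from C57BL/6 mice. The resolving cells came from Foxp3DTR mice on the same background, in which the human diphtheria toxin receptor and GFP are expressed from the Foxp3 locus, so that intraperitoneal diphtheria toxin kills Foxp3+ cells. Lungs of the resolving group were taken at day 7 after Escherichia coli lipopolysaccharide (LPS) at 3 mg/kg was instilled into the trachea. The other 5 arrays held resolving cells with Tregs present, from Foxp3EGFP mice at the same LPS dose and day. They entered the mean levels and the shared estimate of spread used below. All mice were 8 to 12 weeks old. Strain, LPS injury, diphtheria toxin and the loss of Tregs therefore cannot be told apart in this contrast. The labels' treatment text can also be read as giving LPS to every strain, although the first group is called control, and it states no toxin dose or schedule. Nothing in the labels ties an array to a mouse of its own, and the p-values therefore describe the spread among these samples, which may be technical.

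AT2 cells make pulmonary surfactant, a lipid and protein film that keeps the air sacs open, and store it in lamellar bodies. After injury they proliferate and give rise to the flat type I cells through a transitional state. Tregs restrain inflammation and are known to aid the resolution of LPS lung injury in mice.

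The cells had been sorted as CD326+ MHCII+ CD104- CD24- T1a- after depletion of cells with CD31 or CD45. Of the 17 genes on a list of AT2 markers none is among the measured rows, so the labelled cell type could not be checked. Measurements cover 324 rows, or 323 symbols, and are mostly cDNA clones and predicted genes. They are log2 values, on which a step of 1 is a doubling, and values of different genes are not compared with each other because each depends on its own probes. Median values of single arrays over these symbols ran from 2.28 to 2.37 in control and from 2.25 to 2.38 with Tregs depleted. Correlations between arrays across the measured rows were 0.958 to 0.984 within control, 0.951 to 0.981 within the Treg-depleted group and 0.929 to 0.970 between the groups.

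The symbols were divided by their mean over the 15 arrays. The mean exceeded 4 for 46 of them, here called expressed. For the other 277 it was 4 or less, here called near the floor, although some of these lay close to 4. The median of all symbols was 2.32. Whether a near-floor value is above background is not recorded. A filter that asked a gene to exceed the array median in at least 5 of the 15 arrays kept all 46 expressed symbols and 127 of the 277 near the floor. Nearest to the dividing level were Gm19409 below it, at 3.99, and D5Ertd683e above it, at 4.004.

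With Tregs depleted, 19 of the 173 tested genes differed from control by limma at an adjusted p under 0.05, which is 11.0% of those tested. Higher were 5 (2.89%) and lower were 14 (8.09%). Control and Treg-depleted arrays were fully separate for 16 of these 19 genes and for 18 of all 173 (10.4%). In bulk RNA from sorted cells, a change in the make-up of the cells and a change in RNA per cell cannot be told apart. Called genes were D17H6S56E-5, Clu, Gm20559, Prr16 and Gm20115, which rose, and the 14 that fell, among them Lpin2, Ryr2 and Klf11.

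**Figure D1:**
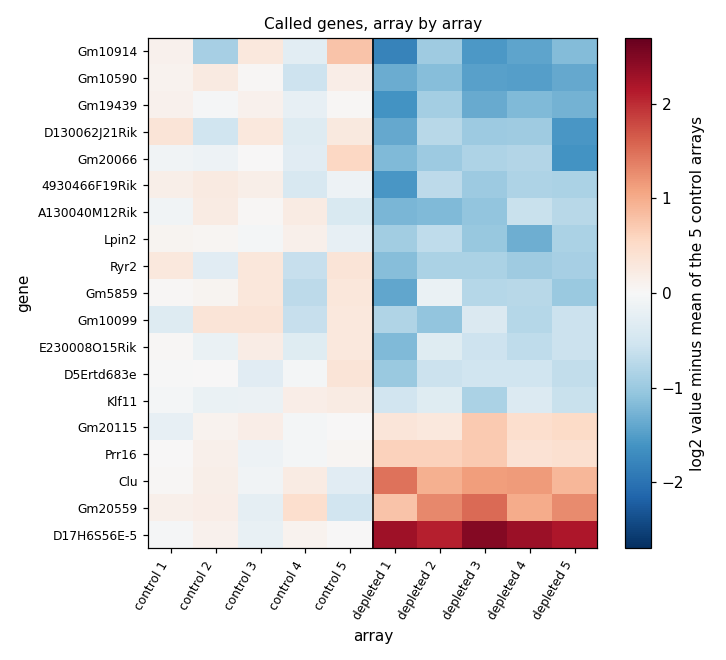
Each row is 1 of the 19 called genes and each column 1 array, and the colour gives the log2 value minus the mean of the 5 control arrays. The row of D17H6S56E-5, with a log2 change of 2.27, is the darkest red in all 5 Treg-depleted arrays, and the row of Gm10914, with a change of -1.38, is among the darkest blue.

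D17H6S56E-5 is a protein-coding gene whose neighbours in the RefSeq table of GRCm38.p6 are Lsm2 and Vars, with the heat shock genes Hspa1a and Hspa1b close by, in the class III region of the mouse major histocompatibility complex. The control arrays stood at 5.51, 5.65, 5.35, 5.64 and 5.55. The Treg-depleted arrays stood at 7.83, 7.64, 8.01, 7.84 and 7.73. Every Treg-depleted array was higher than every control array, by a gap many times the spread within either group. The mean rose from 5.54 ± 0.12 to 7.81 ± 0.14 (SD, n = 5 each), 4.83-fold (log2 change 2.27, 95% interval 1.98 to 2.56, limma adjusted p = 6.70e-10).

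Clu encodes clusterin, a secreted chaperone that binds misfolded proteins and is a gene of the transitional AT2 list. Its control values were 7.65, 7.80, 7.53, 7.84 and 7.34, and its values with Tregs depleted were 9.10, 8.60, 8.75, 8.78 and 8.53. The groups were apart, and the highest value was in Treg-depleted array 1. The mean rose from 7.63 ± 0.21 to 8.75 ± 0.22 (SD, n = 5 each), which is 2.18-fold (log2 change 1.12, interval 0.86 to 1.39, limma adjusted p = 3.53e-06).

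Gm20559, a long noncoding RNA gene in RefSeq that lies beside Samd9l, stood at 6.12, 6.15, 5.73, 6.43 and 5.47 in control and at 6.74, 7.28, 7.50, 6.99 and 7.25 with Tregs depleted. The lowest Treg-depleted array was still above the highest control array. The change was 1.17 on the log2 scale (interval 0.79 to 1.55, limma adjusted p = 0.000184), or 2.25-fold.

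**Figure D2:**
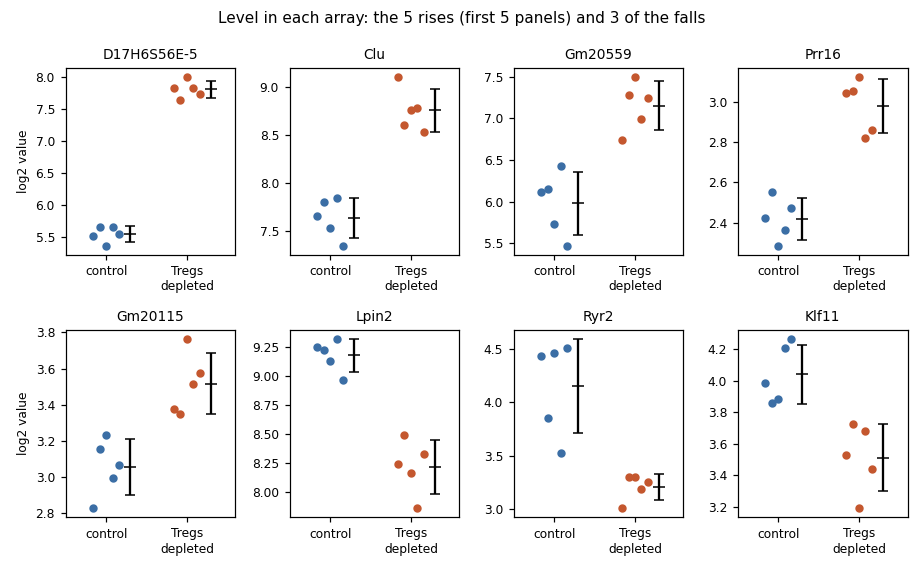
Points are single arrays on the log2 scale, with the mean and SD of the 5 arrays beside them, and each panel has its own vertical axis. In all 8 panels, the 5 rises and Lpin2, Ryr2 and Klf11, the control and Treg-depleted points do not overlap.

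Prr16, which encodes the proline-rich protein Largen, a regulator of cell size, rose near the floor. It was measured at 2.42, 2.55, 2.28, 2.36 and 2.47 in control and at 3.04, 3.05, 3.12, 2.82 and 2.86 with Tregs depleted. The control level lies at the array medians, and whether that is above background is not known. The change was 0.56 (interval 0.34 to 0.78, limma adjusted p = 0.000875), without overlap. The predicted gene Gm20115 rose by 0.46 (limma adjusted p = 0.00822), from 3.06 ± 0.16 to 3.52 ± 0.17 (SD, n = 5 each), and missed the threshold, at 0.0872, without Treg-depleted 2, 3 and 4.

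Lpin2 encodes lipin 2, a phosphatidate phosphatase that makes the diacylglycerol from which phosphatidylcholine, the main surfactant lipid, and triglycerides are built. Control arrays had 9.26, 9.23, 9.13, 9.33 and 8.96, and Treg-depleted arrays had 8.24, 8.49, 8.16, 7.86 and 8.33. No Treg-depleted array reached the lowest control array. Lpin2 fell to 51.2% of control (log2 change -0.97, interval -1.37 to -0.56, limma adjusted p = 0.00149). The measured row belongs to a cDNA clone, and the symbol stands beside a further row that is not analysed here. Among the called genes, Lpin2 was the only 1 with such a second row, against 34 of all 323 symbols.

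Ryr2 encodes a ryanodine receptor, a channel that releases calcium from the endoplasmic reticulum and is best known from heart muscle. It stood at 4.43, 3.85, 4.46, 3.52 and 4.51 in control and at 3.01, 3.30, 3.30, 3.19 and 3.25 with Tregs depleted. The control arrays were spread widely (SD 0.44) and the Treg-depleted arrays narrowly (SD 0.12), with control 4 the control nearest to them. The fall of Ryr2 was 0.95 (interval -1.31 to -0.59, limma adjusted p = 0.000716), to a level near the floor.

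Klf11, a Krüppel-like transcription factor gene that acts in TGF-beta signalling, had 3.99, 3.86, 3.89, 4.21 and 4.27 in control and 3.53, 3.72, 3.19, 3.68 and 3.44 with Tregs depleted. Klf11 fell by 0.53 (interval -0.80 to -0.26, limma adjusted p = 0.00822), with no overlap. After quantile normalization its change was -0.39 and its adjusted p 0.0876, the highest over 23 alternatives, of which the lowest was 0.00289. Klf11 also missed the threshold, at 0.0515, without Treg-depleted 1 and 5.

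Windows were taken from the RefSeq promoter table for GRCm38.p6, with 250 bases before and 50 after a gene's start. A single chromosome was left out of this step, and 5 of the 19 called genes had a window. The windows of the rises D17H6S56E-5 and Gm20559, and of Lpin2 and Klf11 among the falls, are printed so that genes that rose and fell can be set side by side. That of Ryr2 is described only. Lpin2 has several starts and the most upstream is shown, and the starts of Gm20559 differ by up to 3 bases. Capitals mark matches on either strand, with overlaps counted. The promoter element bound by the TATA-binding protein was searched as TATAAA. The element bound by the factor NF-Y was searched as CCAAT, and the GC box of Sp factors as GGGCGG. The site of AP-1 factors was searched as TGANTCA. The interferon response element, a pair of GAAA blocks with any 2 bases between them, was added after the windows had been seen.
D17H6S56E-5, chr17:35000697-35000996, minus strand: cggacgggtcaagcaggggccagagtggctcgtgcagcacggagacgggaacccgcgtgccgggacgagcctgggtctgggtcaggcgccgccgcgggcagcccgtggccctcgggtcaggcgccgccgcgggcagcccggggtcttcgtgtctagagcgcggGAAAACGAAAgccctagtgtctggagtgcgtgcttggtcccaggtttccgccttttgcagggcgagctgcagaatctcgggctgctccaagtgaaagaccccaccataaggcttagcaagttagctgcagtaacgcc
Gm20559, chr6:3346092-3346391, minus strand: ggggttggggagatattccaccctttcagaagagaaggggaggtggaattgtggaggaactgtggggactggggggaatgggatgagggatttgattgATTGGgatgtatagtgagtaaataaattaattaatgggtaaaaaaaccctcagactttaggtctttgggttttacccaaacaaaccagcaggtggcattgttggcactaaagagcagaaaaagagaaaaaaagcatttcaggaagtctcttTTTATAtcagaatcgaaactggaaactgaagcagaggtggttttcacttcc
Lpin2, chr17:71183282-71183581, plus strand: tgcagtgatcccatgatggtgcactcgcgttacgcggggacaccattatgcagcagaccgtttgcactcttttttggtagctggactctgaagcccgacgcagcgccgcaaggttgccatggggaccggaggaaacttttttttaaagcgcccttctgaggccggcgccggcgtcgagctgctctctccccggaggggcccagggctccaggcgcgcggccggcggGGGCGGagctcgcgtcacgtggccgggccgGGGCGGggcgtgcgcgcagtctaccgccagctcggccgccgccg
Klf11, chr12:24651121-24651420, plus strand: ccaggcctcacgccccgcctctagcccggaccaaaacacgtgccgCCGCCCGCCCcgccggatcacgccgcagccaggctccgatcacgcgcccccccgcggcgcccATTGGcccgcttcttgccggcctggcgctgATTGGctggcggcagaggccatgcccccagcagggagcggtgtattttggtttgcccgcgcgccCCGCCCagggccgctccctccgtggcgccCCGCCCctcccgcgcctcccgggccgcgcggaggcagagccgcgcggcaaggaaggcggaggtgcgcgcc

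The D17H6S56E-5 window held 1 match to the interferon response element, which 3.43% of the 32817 windows in the table hold, and none to the other 4 motifs. Since that element was added after the windows had been seen, the share does not measure how unusual this match is. No other window of the called genes held it, that of the rise Gm20559 included. The Gm20559 window held 1 match to the TATA element, found in 13.6% of all windows, and 1 to the NF-Y element, found in 37.4%. This TATA match reads TTTATA, on the strand opposite to the gene, and lies across the gene's start and not upstream of it. GC content followed no division by direction: it was 67.0% in D17H6S56E-5 and 42.3% in Gm20559, and 68.7% in Lpin2, 77.7% in Klf11 and 65.3% in Ryr2, against a median of 52.7% over the table. The other starts of Lpin2 had 80.7%, with 1 GC box, and 45.0%, with no GC box and 3 matches to the NF-Y element. GC boxes numbered 2 in the printed Lpin2 window, 4 in Klf11 and 2 in Ryr2, and 35.6% of all windows hold at least 1. Klf11 also held 2 matches to the NF-Y element. No AP-1 match lay in any window of the called genes used here, against 7.81% of all windows, where no chromosome was left out. A match is a description of the letters and not a measured binding site.

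Among the 14 expressed genes with an established symbol, 4 were called, a share near that of all 46 expressed genes (14 called, 30.4%): D17H6S56E-5 and Clu rose and Lpin2 and D5Ertd683e fell. D5Ertd683e, an expressed DNA segment, went from 4.50 ± 0.23 to 3.84 ± 0.20 (SD, n = 5 each), a change of -0.66 (interval -1.08 to -0.25, limma adjusted p = 0.0336). Its call was lost in 11 of 24 alternatives, among them 5 of the 10 single left-out arrays (control 1, 2 and 5, Treg-depleted 1 and 5, adjusted p 0.0596 to 0.0965), no filter on low genes (0.0687) and an ordinary linear model (0.0647). After quantile normalization the change of D5Ertd683e was -0.38 and its adjusted p 0.232, the highest of the 24.

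The other 10 expressed genes with an established symbol did not pass the test. Nearest was Pigl, an enzyme gene of GPI anchor synthesis, with 6.69, 6.27, 6.34, 6.14 and 6.33 in control and 5.97, 6.11, 5.57, 6.07 and 5.58 with Tregs depleted. The groups did not overlap for Pigl, its change was -0.49 (interval -0.83 to -0.16) and its limma adjusted p was 0.0544. It passed under 6 of the 24 alternatives, among them centring of the arrays (adjusted p = 0.0438) and quantile normalization (0.0467), over a range of 0.0129 to 0.190. Dedd2, a death effector domain gene that acts in apoptosis, had a change of -0.48 (interval -0.92 to -0.04, limma adjusted p = 0.179) and passed without control 4, at 0.0307, over a range of alternatives up to 0.764.

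Edv, named for an endogenous sequence related to the Duplan murine retrovirus, had 7.95, 7.98, 7.78, 7.87 and 7.67 in control and 8.08, 8.71, 8.19, 8.01 and 7.88 with Tregs depleted. The groups overlapped and its change was 0.32 (interval -0.04 to 0.69, limma adjusted p = 0.299). Thoc7, a subunit of the mRNA export complex THO, differed by 0.22 (interval -0.03 to 0.47, adjusted p = 0.299). Pdzd2, a gene of a PDZ domain protein, differed by 0.25 (-0.14 to 0.65, adjusted p = 0.425), and the long noncoding RNA Dleu2 by 0.25 (-0.15 to 0.66, adjusted p = 0.430). After quantile normalization Dleu2 passed, at 0.64 and an adjusted p of 0.0173, while its range over alternatives reached 0.664.

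The remaining 4 of these genes did not pass either. Sh3bgrl2 differed by 0.01 (interval -0.23 to 0.24) and Fnbp4, a formin-binding protein gene, by -0.04 (-0.31 to 0.23). Map3k14, which encodes the NF-kappa-B-inducing kinase of the noncanonical NF-kappa-B pathway, differed by -0.06 (-0.47 to 0.35). Mpp7, a scaffold gene of epithelial junctions, differed by -0.23 (-0.68 to 0.22, limma adjusted p = 0.545). The fitted sign of Map3k14 and Mpp7 turned after quantile normalization, at 0.06 and 0.17.

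Predicted genes and RIKEN cDNA clones made up 30 of the 46 expressed genes, and 10 of them were called, 1 higher and 9 lower, also near the 30.4% of all expressed genes. Gm19439 had 7.79, 7.64, 7.79, 7.45 and 7.72 in control and 6.06, 6.75, 6.31, 6.49 and 6.40 with Tregs depleted. It fell without overlap to 41.4% of control (log2 change -1.27, interval -1.56 to -0.98, limma adjusted p = 3.27e-06). Gm10590 had 6.77, 6.91, 6.69, 6.10 and 6.85 in control and 5.33, 5.51, 5.20, 5.17 and 5.28 with Tregs depleted. Control 4 stood below the other controls and still above every Treg-depleted array, and the fall of Gm10590 was to 38.7% of control (log2 change -1.37, limma adjusted p = 1.11e-05).

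Gm10914 fell by 1.38 on the log2 scale (limma adjusted p = 0.00149) over widely spread controls, from 4.71 in control 2 to 6.39 in control 5. Its Treg-depleted arrays lay between 3.81 and 4.66. D130062J21Rik fell by 1.13 (limma adjusted p = 0.00341; 0.0572 without Treg-depleted 1 and 5), from 5.47 ± 0.41 to 4.34 ± 0.34 (SD, n = 5 each). 4930466F19Rik fell by 0.99 and A130040M12Rik by 0.97, without overlap between groups (limma adjusted p = 0.000716 and 0.000249).

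E230008O15Rik (-0.67), Gm10099 (-0.72) and Gm5859 (-0.82) shared a limma adjusted p of 0.0336, as did D5Ertd683e. E230008O15Rik lost its call without control 1, 3 or 5 or Treg-depleted 1, 4 or 5. Gm10099 lost it without control 2, 3 or 5 or Treg-depleted 1, 2 or 4. Gm5859 lost it without any 1 of control 1, 2, 3 or 5 or Treg-depleted 1, 3, 4 or 5. Their adjusted p-values in these fits ran from 0.0531 to 0.0965. Each of the 3 lost its call in 11 of 24 alternatives in all, including no filter on low genes and an ordinary linear model. The highest adjusted p was 0.190 for E230008O15Rik and 0.244 for Gm5859, both without Treg-depleted 1 and 5, and 0.322 for Gm10099 after quantile normalization, where its change was -0.36. These 3 were also the called genes whose groups overlapped, and the other 15 of the 19 calls (all but these 3 and D5Ertd683e) were kept whichever of the 10 arrays was left out.

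Several of these rows stand for more than 1 array feature. The file joins several Affymetrix identifiers in 7 of the 46 expressed rows, and 5 of the 7 were called, all lower, where 23.9% of all expressed genes were called lower: Gm10590, Gm5859, 4930466F19Rik, Gm10914 and A130040M12Rik. RefSeq holds Gm5859 as a transcribed pseudogene. Near the floor none of 6 such rows was called, against 3.94% of the 127 tested genes near the floor. Signals of the joined features cannot be told apart in such a row, so these changes are uncertain as changes of a single locus. RefSeq gene numbers matched 16 of the 46 expressed rows, of which 6 were called, and 47 of the 127 near the floor, of which 3 were called. The shares called among all genes of these classes were 30.4% and 3.94%.

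**Figure D3:**
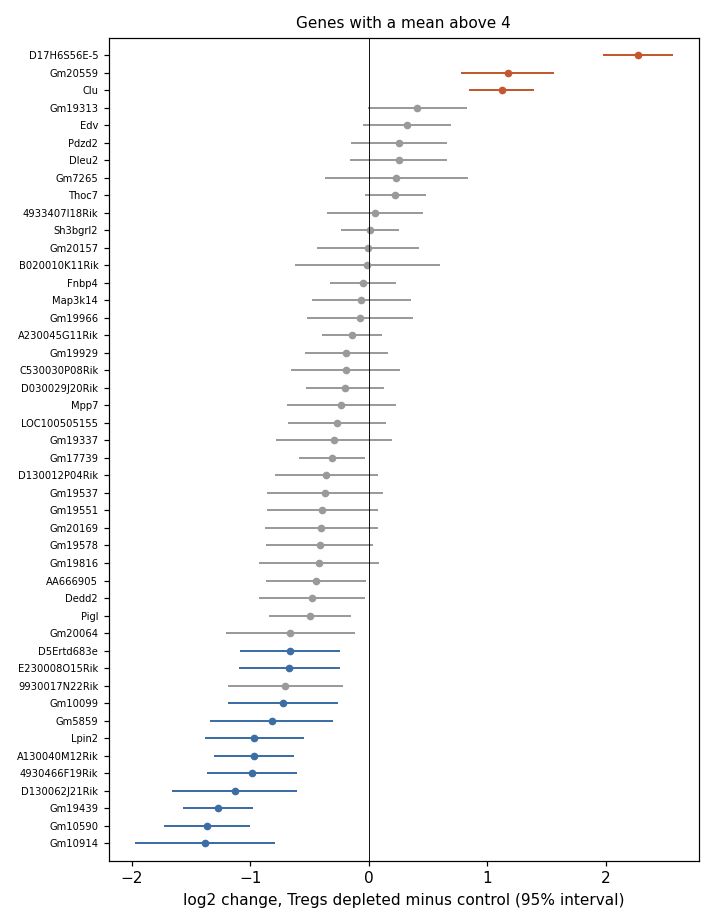
Points are the fitted log2 changes (Tregs depleted minus control) of the 46 expressed genes with 95% intervals from limma, orange for called and higher, blue for called and lower, grey for not called. The 3 rises stand apart from the rest, the nearest of which is Gm19313 at 0.41, while the falls run on into the genes that were not called.

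Calls were then counted by level. Of the 46 expressed genes 14 were called (30.4%), 3 higher (6.52%) and 11 lower (23.9%). Of the 127 tested genes near the floor 5 were called (3.94%), 2 higher (1.57%) and 3 lower (2.36%). The 3 near-floor falls were Gm20066 (-1.08, limma adjusted p = 0.000734), Ryr2 and Klf11. Their class rests on the mean over 15 arrays, which includes the arrays in which they fell. In control alone the mean was 4.32 for Gm20066 and 4.04 for Klf11, and Ryr2 ran from 3.52 to 4.51. The class of these genes is therefore not independent of their change. A change of at least 2-fold was called for 8 of the 173 (4.62%), 7 expressed (15.2%) and 1 near the floor (0.787%). The groups did not overlap for 12 expressed genes (26.1%) and 6 near the floor (4.72%). At an unadjusted p under 0.05 in limma, 37 of the 173 genes differed (21.4%), 20 of them expressed (43.5%) and 17 near the floor (13.4%). No test was made between these classes, since genes are not replicates.

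The classes also differed in the size and the precision of the measured changes. The median size of the change was 0.40 among expressed genes and 0.11 near the floor, and 95% intervals reached a median of 0.41 and 0.24 to either side. Within-group spread was wider among expressed genes too, with a median SD in control of 0.32 against 0.18. Near the floor 105 of 127 changes were under 0.25 in size, against 14 of 46 among expressed genes. The smallest called change was 0.66 among expressed genes and 0.46 near the floor.

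The fitted change lay below 0 for 35 of the 46 expressed genes (76.1%), with a median of -0.30, and for 61 of the 127 near the floor (48.0%), with a median of 0.01. The lean towards lower values was found at middle levels: 19 of 21 genes with a mean between 4 and 5 and 9 of 11 between 5 and 6 were below 0, against 7 of 14 above 6. Among expressed predicted genes and RIKEN clones 26 of 30 were below 0 (median -0.38), and among expressed genes with an established symbol 7 of 14 (median -0.02). This balance depended on which scaling was used. With the arrays centred on their medians, 35 of the 46 expressed genes (76.1%) were below 0 and their median was -0.31. Quantile normalization gives every array the same set of values over the measured rows, which by itself limits such a lean. After quantile normalization 21 of the 46 expressed genes (45.7%) were below 0 and their median was 0.03. The calls then numbered 19 again, 7 higher and 12 lower, or 36.8% higher against 26.3% as deposited. Of the genes called as deposited, all 5 higher and 11 of the 14 lower were called here too.

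**Figure D4:**
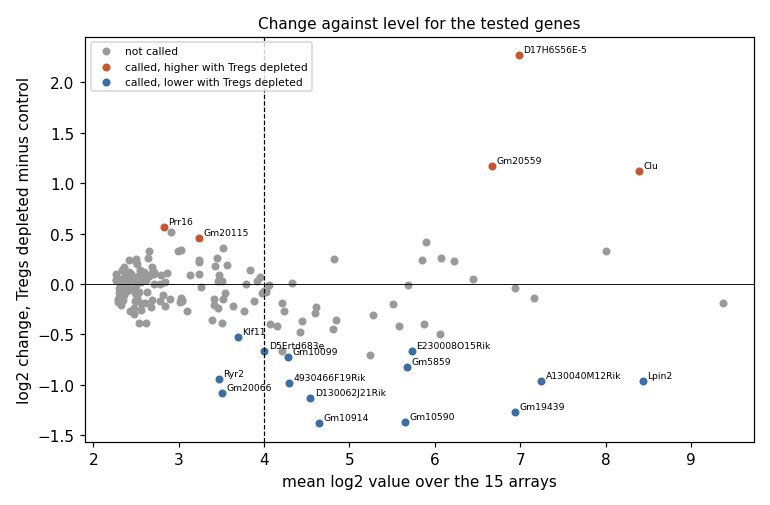
Each point is 1 of the 173 tested genes, with its mean log2 value over the 15 arrays across and its log2 change (Tregs depleted minus control) upwards, and the dashed line marks the level of 4. Points left of the line gather around 0, with 5 called, and points right of it spread downwards, with 11 called lower and 3 higher.

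The source and the opening line of the description name AT2 cells in every sample, while the next line of the description speaks of Tregs, from the spleen for Treg-depleted arrays 2, 3 and 4 and from the lung for the rest. Groups here follow the opening line. Without these 3 arrays 16 genes were called, 12 of them expressed, and 15 of the 16 were among the 19. With only these 3, an alternative chosen after seeing the data, 14 were called, 10 of them expressed, and 13 of the 14 were among the 19. D17H6S56E-5, Clu, Gm20559, Lpin2, Ryr2 and Prr16 were called both ways. Among the falls, array 1 had the lowest value of its group for 4930466F19Rik, A130040M12Rik, D5Ertd683e, E230008O15Rik, Gm10914, Gm19439, Gm5859 and Ryr2. Another array was lowest for D130062J21Rik, Gm10099, Gm10590, Gm20066, Klf11 and Lpin2. Among the rises array 1 was lowest for Gm20559 and highest for Clu. How often array 1 was lowest over all tested genes was not counted.

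Of 16 lists of genes for AT2 function, injury responses and other cell types, 9 had no measured gene, including those for AT1, endothelial, mesenchymal and airway cells, the cell cycle and Tregs. Clu was the only 1 of 16 transitional AT2 genes measured, Lpin2 of 30 for lipid synthesis, Ryr2 of 21 for intracellular calcium, Klf11 of 19 for Krüppel-like and Sp factors and Map3k14 of 25 for the NF-kappa-B pathway. No statement about these pathways as a whole can rest on 1 gene each. Trim30a, an interferon-induced gene and the only 1 of 28 on the interferon list, had 3.87, 2.21, 2.34, 3.44 and 2.45 in control. With Tregs depleted it had 2.61, 2.62, 2.89, 3.90 and 4.85. The groups overlapped and the change of 0.51 did not pass (interval -0.29 to 1.32, limma adjusted p = 0.425).

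Leukocyte genes were measured for 4 of 26. Lcp2, which encodes the adaptor SLP-76 of immune receptor signalling, had 3.60, 2.78, 3.41, 6.61 and 3.81 in control and 2.75, 3.37, 3.64, 3.50 and 7.07 with Tregs depleted. A single array in each group, control 4 and Treg-depleted 5, stood far above the others, and the difference between groups was 0.03 (interval -1.48 to 1.53). Nckap1l, Slamf6 and Rcsd1 lay between 1.99 and 2.67 in all 10 arrays, and Rcsd1 was not tested. The summed linear level of the 4 genes ran from 21.5 to 114.7 in control and from 21.6 to 149.3 with Tregs depleted. Its highest values, in control 4 and Treg-depleted 5, mostly restate Lcp2. The sum joins genes with different probes and is not a level of leukocytes. Without control 4 and Treg-depleted 5, 21 genes were called, 18 of them among the 19, with 14 expressed.

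Resolving cells with Tregs present, from Foxp3EGFP mice on the same background, in which Tregs are fluorescent, were set against the same control arrays, so the 2 comparisons are not independent. The log2 change of D17H6S56E-5 was 2.27 with Tregs depleted and 2.06 with Tregs present, and that of Clu was 1.12 and 1.15. Gm20559 stood at 1.17 and 0.89, and Prr16 at 0.56 and 0.66. Among the falls, Lpin2 stood at -0.97 and -1.28, Ryr2 at -0.95 and -1.11, Klf11 at -0.53 and -0.52, Gm10590 at -1.37 and -1.68 and Gm19439 at -1.27 and -0.94. Of the 19 genes, A130040M12Rik and Gm20115 were not called there. A130040M12Rik was at -0.97 with Tregs depleted and at -0.38 with Tregs present (limma adjusted p = 0.115), and Gm20115 at 0.46 and 0.08 (adjusted p = 0.694). The difference between the resolving groups themselves was -0.59 for A130040M12Rik (interval -0.92 to -0.26) and 0.38 for Gm20115 (0.14 to 0.62). Each had a limma adjusted p of 0.252, so neither was shown to differ between these groups. Strain, diphtheria toxin and the loss of Tregs cannot be told apart between them either.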

How the data were processed

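Each sample's 225 ng of total RNA was hybridised to an Affymetrix Mouse Gene 2.1 ST array. Per the submitters' processing notes, Affymetrix Expression Console, RMA and Partek were used. No version or genome build is stated in what was used here. The deposited values are on the log2 scale, as their range shows, and were used as they stand. Of 31351 rows only the first 324 hold measurements. The later rows lie on straight lines by row number (to within 4.41e-13) and were left out. No column of sample values was left unused. Names were kept beside the values as the deposited tables give them. The members and gene lists were chosen with earlier results of these data known.

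Where a symbol had several rows, that of the highest mean was kept. limma 3.58.1 in R 4.3.3 fitted 1 mean for each of the 3 groups over the 15 arrays (eBayes with a mean-variance trend), and Benjamini-Hochberg adjustment ran over all 173 genes kept. A gene was called at an adjusted p under 0.05, and the intervals hold 95% confidence. Named were all called genes, expressed genes with an established symbol, measured list genes and the 3 highest and 3 lowest changes among genes not called. The fit was tested on simulated data with known changes. Alternatives covered scaling, filters, variance models, table, call rule, dividing level and left-out arrays. The number of arrays limits the precision. Figures and tables were made in Python 3.11.15 with pandas 2.3.3.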

Additional observations from a re-analysis of the deposited data

Results flagged for a closer look

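Arrays were looked at for 38 named genes in 2 groups, 76 sets of 5 values, and in 7 sets 1 array lay far from its 4 companions. Chance gives about 1 in 20, here 3.8. Control 4 was the far array in 5 of them. It was high for Lcp2 at 6.61 (the others 2.78 to 3.81), for Map3k14 at 4.46 (3.88 to 4.002) and for the predicted gene Gm19279 at 4.15 (3.06 to 3.34). It was low for Gm10590 at 6.10 (6.69 to 6.91) and for Gm5859 at 5.66 (6.41 to 6.69). Treg-depleted 5 was high for Lcp2 at 7.07 (2.75 to 3.64), and Treg-depleted 1 was low for D5Ertd683e at 3.49 (3.84 to 3.97). Without control 4, 24 genes were called in place of 19, and the 19 were among them.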

How the results depend on the processing

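Counts of called genes (19 in all, 14 expressed, 5 near the floor) stayed within 1.5 times these values in every alternative except a stricter call and another dividing level. Requiring at least 2-fold change left 8, 7 and 1, by construction. A dividing level of 3 left 1 call near the floor and a level of 5 left 9 expressed and 10 near the floor, since it only moves genes between the classes. Leaving out 1 array gave 15 to 24 genes, 10 to 17 expressed and 5 to 7 near the floor. A replicate block on the numbers 1 to 5 gave 20, 14 and 6. The labels do not tie a number to a shared mouse or day, and same-numbered residuals correlated at -0.18 to 0.04, so no pairing was used. Of the 19 calls, 12 held in each of the 24 refits that tested the gene, which do not include the 2-fold rule. The sign of some changes near 0 turned: Map3k14 (0.0630) and Mpp7 (0.171) after quantile normalization, Sh3bgrl2 (-0.0038) with array weights, Pdzd2 (-0.0469) without Treg-depleted 2, 3 and 4, and Fnbp4 (0.0037) and Lcp2 (-0.0823) without control 4 and Treg-depleted 5. Without Treg-depleted 1 and 5, added after seeing the data, Fnbp4 was at 0.0787, Map3k14 at 0.0038, Lcp2 at -0.536 and Sh3bgrl2 at -0.0341. Over single left-out arrays Lcp2 ran from -0.725 to 0.669, Map3k14 from -0.158 to 0.0842, Fnbp4 from -0.0822 to 0.0198 and Sh3bgrl2 from -0.0273 to 0.0354. The cause of these turns was not tested.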

Other observations

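Near the floor, 32 tested genes had an established symbol, and 3 of them, Prr16, Ryr2 and Klf11, were called. Of all 127 tested genes near the floor 5 were called (3.94%), and of all 173 tested genes 19 (11.0%). The largest changes among genes that did not pass were those of 9930017N22Rik (-0.70, limma adjusted p = 0.0553), Gm20064 (-0.66, adjusted p = 0.122) and Pigl on the lower side. On the higher side they were Trim30a, Gm19313 (0.41, adjusted p = 0.230) and Gm19279 (0.36, adjusted p = 0.425).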
